A study of Mus musculus with 15 samples.

Results

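The CXC chemokine ligands examined here were 9 genes, Cxcl1, Cxcl2, Cxcl3, Cxcl9, Cxcl10, Cxcl12, Cxcl13, Cxcl14 and Cxcl16, taken by their gene names from the 38924 genes listed for each library. All 9 were among the 14967 genes that passed the filter on low counts, set at 1 cpm (counts scaled to library size) or more in 2 or more libraries. RNA was sequenced from brain myeloid cells of 12-month-old wild-type male C57BL/6J (B6) mice, either kept on a control chow diet (CD) or given a western diet (WD) from 2 months of age. Cells positive for CD11b and negative for CD3e were sorted by their level of CD45 into CD11b+CD45hi and CD11b+CD45lo cells. There were 4 CD CD45hi, 4 CD CD45lo, 3 WD CD45hi and 4 WD CD45lo libraries. CD45 level is a gate and not a lineage, so each library is a bulk of several cell types, and fewer cells of a type cannot be told apart from less RNA per cell. The study describes its counts as given per animal, and the tests measure the spread between these libraries.

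CXC chemokines are small secreted proteins that carry a single residue between their first pair of conserved cysteines, and they guide leukocytes through receptors coupled to G proteins. Cxcl1, Cxcl2 and Cxcl3 act on Cxcr2 and attract neutrophils. Cxcl9 and Cxcl10 are induced by interferon and act on Cxcr3 of T and NK cells. Cxcl12 acts on Cxcr4, Cxcl13 draws B cells through Cxcr5, and Cxcl16 is made as a membrane protein that binds Cxcr6 and can be shed. In the brain such genes are known as products of glia, of blood vessel cells and of macrophages at the brain's borders.

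The libraries held between 11951412 and 17912272 expected counts each, and 3 counts, taken as the smallest measurable amount, equalled 0.156 to 0.282 cpm. Summed over 7 microglia genes, the level was 11070 to 14221 cpm in CD45lo libraries and 5311 to 6481 cpm in CD45hi libraries. Summed over 5 border macrophage genes, it was 63.3 to 232 cpm in CD45lo and 738 to 2593 cpm in CD45hi libraries. One CD CD45hi library (replicate 4) and one WD CD45hi library (replicate 1) stood apart from the rest on the second principal component, which held 13.2% of the variance. Counts were therefore also made without both libraries.

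Of the 9 CXC chemokines, Cxcl2, Cxcl9, Cxcl13 and Cxcl16 were higher in CD11b+CD45hi cells than in CD11b+CD45lo cells on both diets. These 4 passed the test for a difference of more than 1.5-fold at a false discovery rate (FDR) under 0.05, in WD-fed as in CD-fed mice, and 0 members were called lower. In the fit, Cxcl2 was 138-fold higher in WD-fed and 98.9-fold in CD-fed mice, Cxcl9 152-fold and 92.0-fold, Cxcl13 11.3-fold and 16.5-fold, and Cxcl16 3.90-fold and 4.22-fold. Cxcl10 fell short of the test on both diets. Over all genes 4.01% were called higher and 1.17% lower in CD45hi cells of WD-fed mice, against 3.39% higher and 0.588% lower in CD-fed mice. Without the pair of libraries that stood apart, 4 members passed on each diet, but in WD-fed mice Cxcl1 took the place of Cxcl13. The median log2 fold change of the 9 members was 3.49 in WD-fed and 4.04 in CD-fed mice, or 2.37 and 3.04 with Cxcl1 and Cxcl3 set at their lower bounds. The median over all genes was 0 and 0.04. Cxcl1, Cxcl3 and Cxcl14 reached 1 cpm in CD45hi libraries only and so passed the filter through the group in which they were high. Cxcl9 reached 1 cpm in 1 CD CD45lo and 0 WD CD45lo libraries, under the 2 required. It therefore also passed the filter through CD45hi libraries. This leaves the counts and medians over the members, the call of Cxcl9 among them, a description.

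The CD45hi and CD45lo libraries did not overlap for 4 members in WD-fed mice and for 7 in CD-fed mice, each higher in CD45hi cells. Over all genes 10% and 8.26% were higher in every CD45hi library than in any CD45lo library of WD-fed and CD-fed mice. Cxcl9 on both diets, and Cxcl3 and Cxcl14 in CD-fed mice, are among these members and passed the filter through CD45hi libraries. In CD-fed mice Cxcl3 was separated by 1 count against 0, under the smallest measurable amount of 3 counts. Cxcl14 was separated by 0.33 against 0.28 cpm. The counts of members without overlap are therefore a description.

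**Figure D1:**
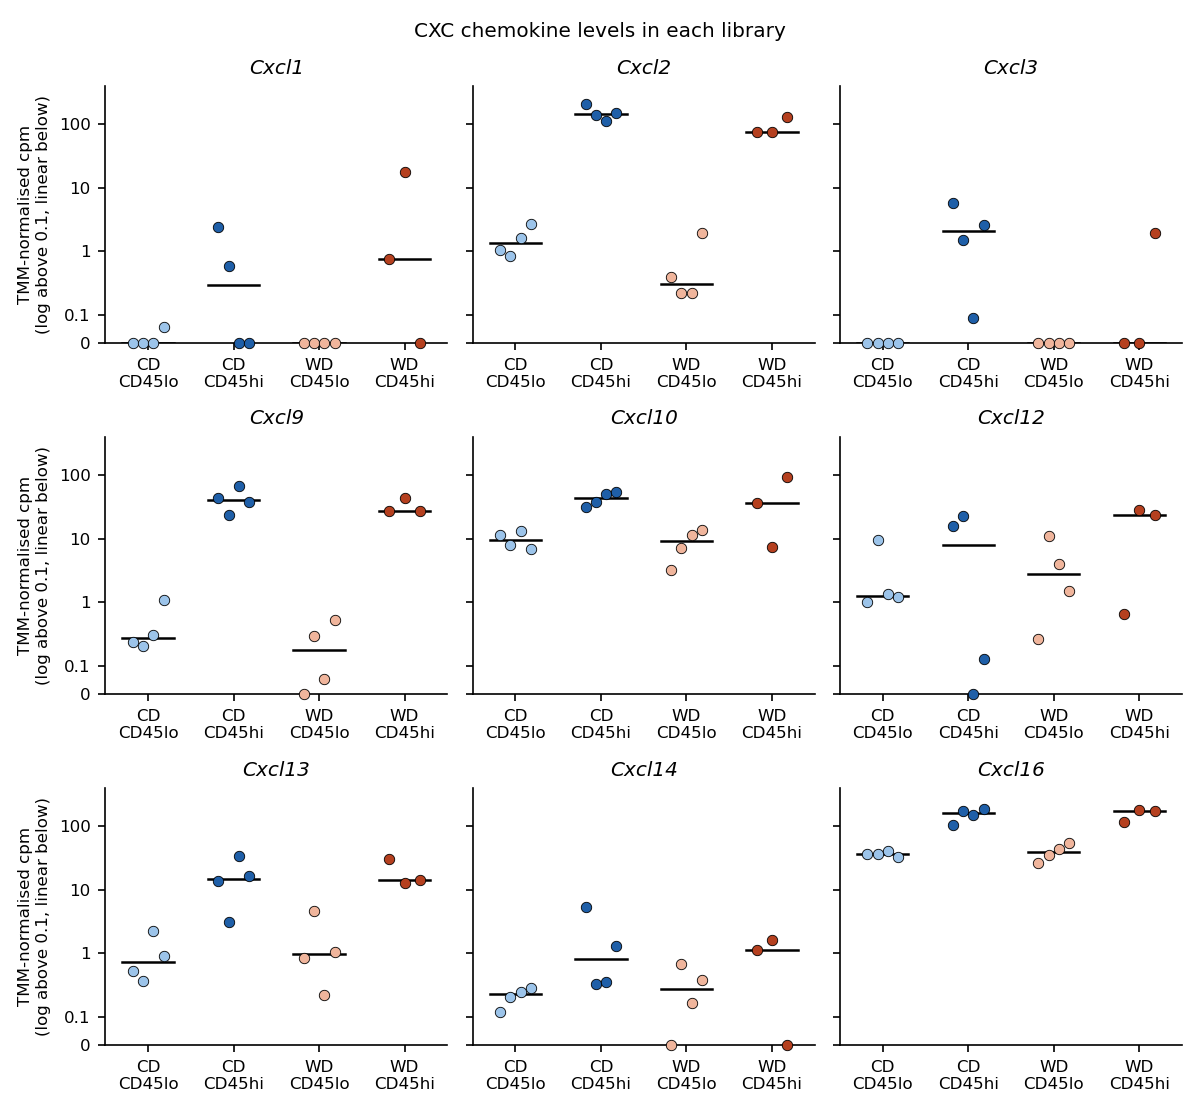
TMM-normalised cpm of each CXC chemokine in each library (points) with the group median (bar, on the axis where it is 0), on an axis that is logarithmic above 0.1 cpm and linear below. Cxcl2 and Cxcl9 of CD45hi libraries lay far above CD45lo libraries on both diets, whereas Cxcl16 and Cxcl10 were measured in every library of both cell populations.

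**Figure D2:**
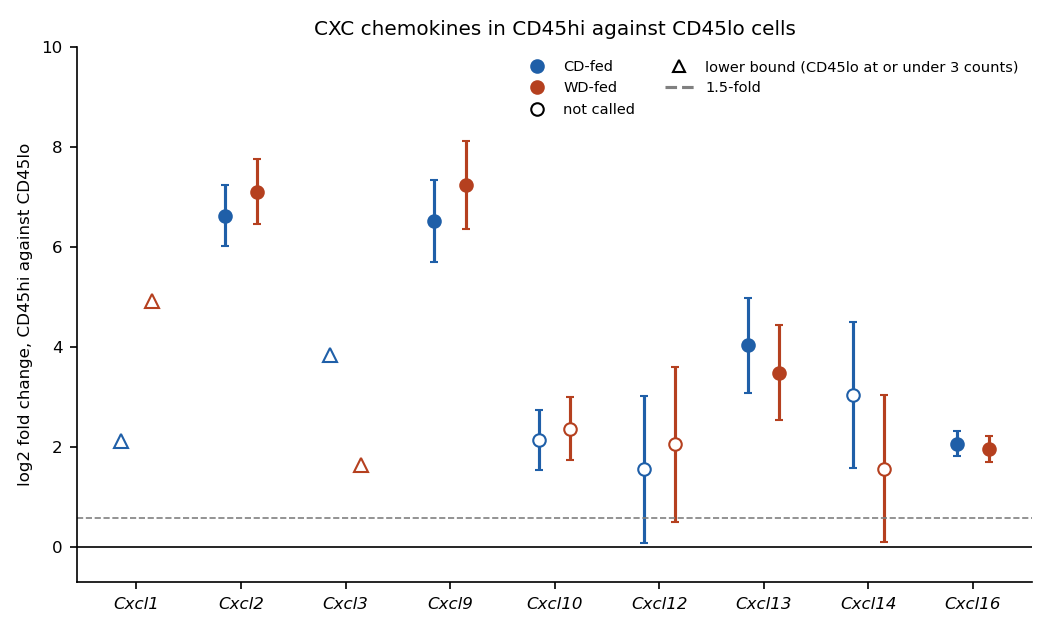
Log2 fold change of each CXC chemokine in CD45hi against CD45lo cells with its standard error, for CD-fed (blue) and WD-fed (red) mice. Filled circles passed the 1.5-fold test at an FDR under 0.05, and triangles are lower bounds for Cxcl1 and Cxcl3, whose CD45lo libraries were at or under 3 counts.

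Cxcl2, Cxcl1 and Cxcl3 are neighbouring ligands of Cxcr2, all on the plus strand of chromosome 5 (build mm10) and within 119.836 kb. Cxcl3 lies at chr5:90786103-90789600, Cxcl1 at chr5:90891241-90893115 and Cxcl2 at chr5:90903871-90905938. Cxcl2 (ENSMUSG00000058427) showed 205, 141, 114 and 151 cpm in the 4 CD CD45hi libraries and 1.06, 0.83, 1.60 and 2.67 cpm in the CD CD45lo libraries. In WD-fed mice it showed 76.8, 76.4 and 132 cpm in CD45hi and 0.39, 0.22, 0.22 and 1.97 cpm in CD45lo libraries. Every CD45hi library was thus far above every CD45lo library. The log2 fold change was 7.11 ± 0.65 (SE, FDR = 3.13e-06) in WD-fed mice and 6.63 ± 0.61 (FDR = 3.43e-06) in CD-fed mice. The FDR of Cxcl2 stayed under 0.05 in all 25 alternatives on each diet, with a highest value of 0.00181 in WD-fed mice.

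Cxcl1 and Cxcl3 were low and irregular beside Cxcl2. Cxcl1 (ENSMUSG00000029380) showed 2.42 and 0.58 cpm in 2 CD CD45hi libraries and 0 in the other 2, and 0.75, 17.8 and 0 cpm in the 3 WD CD45hi libraries. In CD45lo cells 1 count of Cxcl1 was found over all 8 libraries. The mean of WD CD45hi libraries was at least 30.6-fold higher than the CD45lo floor of 3 counts per library, with an FDR of 0.0566, and that of CD CD45hi libraries at least 4.37-fold higher (FDR = 0.294). A single WD CD45hi library, replicate 2, carried most of the Cxcl1 reads, and without it the bound was 1.85-fold and the FDR 0.231. Without CD CD45hi replicate 1 the bound in CD-fed mice was 1.13-fold. Without CD CD45hi replicate 1, 3 or 4 or WD CD45hi replicate 3, Cxcl1 passed in WD-fed mice (FDR = 0.0263 to 0.0499). Cxcl3 (ENSMUSG00000029379) showed 5.70, 1.49, 0.09 and 2.64 cpm in CD CD45hi libraries, 0, 0 and 1.92 cpm in WD CD45hi libraries, and 0 in all 8 CD45lo libraries. Its bound was at least 14.4-fold in CD-fed mice (FDR = 0.0978) and at least 3.15-fold in WD-fed mice (FDR = 0.182), so neither of these genes passed the test.

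The bases before the start sites of these 3 genes are shown because the genes share a motif there but differed widely in level. Each line gives the 120 bases before the RefSeq start site (build GRCm38.p6, plus strand), with capitals marking the match to the NF-kB consensus. For Cxcl1 and Cxcl2 this site lies after the gene start given above, which comes from another annotation (GENCODE). Their lines therefore end inside those gene positions, and distances depend on the start site used.
Cxcl1, chr5:90891125-90891244: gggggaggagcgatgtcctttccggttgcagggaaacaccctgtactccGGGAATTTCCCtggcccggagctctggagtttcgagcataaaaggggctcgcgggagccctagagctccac
Cxcl2, chr5:90903779-90903898: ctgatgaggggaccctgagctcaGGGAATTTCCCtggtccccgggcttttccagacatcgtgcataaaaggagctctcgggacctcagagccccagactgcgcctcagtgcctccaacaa
Cxcl3, chr5:90785981-90786100: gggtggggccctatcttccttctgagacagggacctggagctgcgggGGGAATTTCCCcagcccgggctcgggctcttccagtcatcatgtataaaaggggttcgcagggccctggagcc
In all 3 windows the consensus was matched on both strands by the same overlapping pair of words, GGGAATTTCC and GGAATTTCCC, between -71 and -61 in Cxcl1, -97 and -87 in Cxcl2, and -73 and -63 in Cxcl3, counted from 0 at the start site. RefSeq windows were found for 8 of the 9 members. A match on either strand was present in 4 of these 8 windows (250 bases before to 50 after the start) and in 4.51% of 32851 windows of the same length. Cxcl1, Cxcl2 and Cxcl3, neighbours with the same words, are 3 of the 4, so the 4 are not separate cases. The match is a feature of the sequence, and no binding was measured.

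Cxcl9 and Cxcl10 are neighbours on the minus strand of chromosome 5, at chr5:92321347-92328079 and chr5:92346638-92348889, and together span 27.543 kb. Cxcl9 (ENSMUSG00000029417) showed 43.3, 23.8, 66.6 and 37.5 cpm in CD CD45hi and 27.5, 44.6 and 27.5 cpm in WD CD45hi libraries. In CD45lo libraries it showed 0.24, 0.21, 0.31 and 1.08 cpm on the CD and 0, 0.30, 0.05 and 0.53 cpm on the WD, which were 0 to 19 counts per library. The groups lay far apart on both diets. The log2 fold change was 7.25 ± 0.88 (FDR = 6.05e-05) in WD-fed mice and 6.52 ± 0.81 (FDR = 8.84e-05) in CD-fed mice. Cxcl9 passed in all 25 alternatives on each diet, which remains a description because it passed the filter through CD45hi libraries.

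Cxcl10 (ENSMUSG00000034855) was present in both cell populations. It showed 31.6, 37.6, 51.6 and 55.4 cpm in CD CD45hi and 11.5, 7.89, 13.3 and 6.92 cpm in CD CD45lo libraries, without overlap. In WD CD45hi libraries it ranged most widely, with 37.0, 7.31 and 93.5 cpm, and overlapped the WD CD45lo libraries at 3.28, 7.12, 11.3 and 13.9 cpm. The log2 fold change of 2.37 ± 0.63 in WD-fed and 2.15 ± 0.60 in CD-fed mice did not pass the 1.5-fold test (FDR = 0.0554 and 0.0856). Single WD CD45hi libraries decided this for Cxcl10 in WD-fed mice. Without replicate 2 the value was 2.87 (FDR = 0.00532), and without replicate 3 it was 1.31 (FDR = 0.295). Cxcl10 passed in 5 of 25 alternatives on each diet, in CD-fed mice among them without WD CD45hi replicate 2 or 3 (FDR = 0.0200 and 0.0458), which shared in the estimate of the spread. The body of Cxcl10 overlaps Art3, a gene on the opposite strand, and the library kit does not keep strand, so reads there cannot be assigned by strand.

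The 250 bases before the start sites of both genes are shown because the genes are neighbours but differed in level in CD45lo cells, at 0.32 TPM for Cxcl9 and 23.0 TPM for Cxcl10 on the CD. Capitals mark matches to the NF-kB consensus and to the core of the interferon-stimulated response element (ISRE, searched as GAAANNGAAA on both strands).
Cxcl9, chr5:92328080-92328329, minus strand: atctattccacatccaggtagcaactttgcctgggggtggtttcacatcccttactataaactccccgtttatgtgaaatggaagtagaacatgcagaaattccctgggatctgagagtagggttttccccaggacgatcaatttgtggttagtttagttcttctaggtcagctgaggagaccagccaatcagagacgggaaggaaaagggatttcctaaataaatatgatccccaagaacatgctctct
Cxcl10, chr5:92348890-92349139, minus strand: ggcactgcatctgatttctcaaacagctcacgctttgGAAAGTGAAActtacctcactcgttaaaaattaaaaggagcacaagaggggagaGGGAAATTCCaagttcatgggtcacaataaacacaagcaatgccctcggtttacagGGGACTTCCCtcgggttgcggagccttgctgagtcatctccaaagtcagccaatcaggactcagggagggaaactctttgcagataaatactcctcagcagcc
In the Cxcl10 window the ISRE core matched as GAAAGTGAAA from -213 to -204, and the NF-kB consensus matched at -159 to -150 and -103 to -94. None of these words was found in the Cxcl9 window, nor was the core of the gamma-activated site (GAS, searched as TTCNNNGAA). The search took these words only, so sites spelled otherwise would be missed and their absence cannot be read from it. Cxcl14 held an ISRE core match, from -172 to -163, and a GAS core match, from -191 to -183, and Cxcl12 and Cxcl13 held neither. Cxcl16 is the member without a RefSeq window. The ISRE core was present in 3.44% and the GAS core in 8.30% of all windows.

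**Figure D3:**
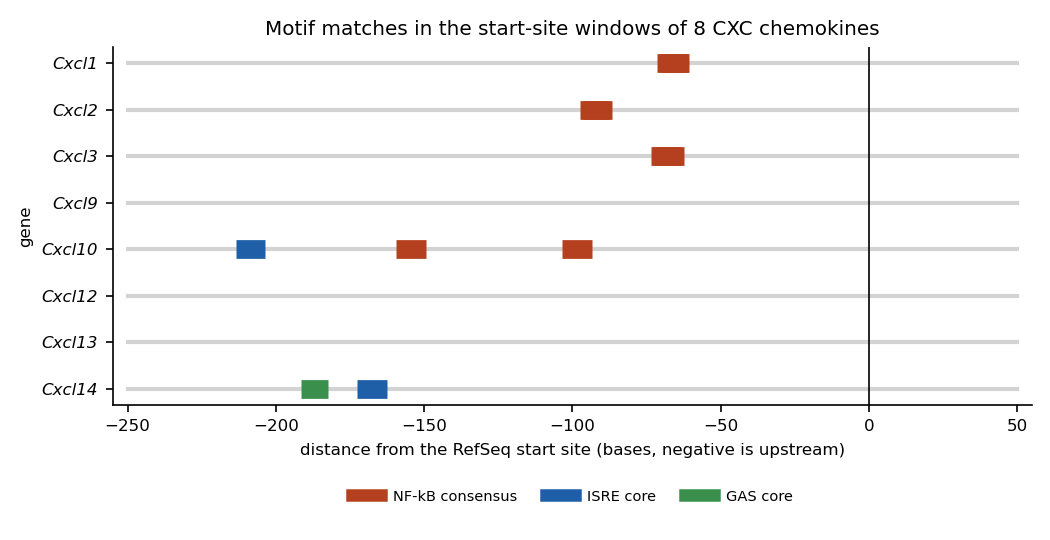
Matches to the NF-kB consensus, the ISRE core and the GAS core (coloured blocks) by distance in bases from the RefSeq start site, in the windows of 8 CXC chemokines. Cxcl1, Cxcl2 and Cxcl3 each hold 1 NF-kB block before the start, Cxcl10 holds 2 such blocks and an ISRE core, and Cxcl9, Cxcl12 and Cxcl13 hold no match.

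Cxcl16 (ENSMUSG00000018920, chr11:70453983-70459984, minus strand), the membrane-bound ligand of Cxcr6, was abundant in both cell populations. It showed 106, 176, 148 and 188 cpm in CD CD45hi and 36.8, 36.7, 40.5 and 32.7 cpm in CD CD45lo libraries. In WD-fed mice it showed 117, 181 and 171 cpm in CD45hi and 26.8, 35.5, 43.5 and 54.8 cpm in CD45lo libraries. No CD45hi library came near the CD45lo range. The log2 fold change was 1.96 ± 0.26 (FDR = 0.000742) in WD-fed and 2.08 ± 0.25 (FDR = 0.000267) in CD-fed mice, that is 3.90-fold and 4.22-fold. It held in all 25 alternatives on each diet. Cxcl16 overlaps Zmynd15 on the opposite strand, and RSEM gave it fractional counts in 14 of 15 libraries, so part of its reads were shared with other features.

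Cxcl13 (ENSMUSG00000023078, chr5:95956951-95961068, plus strand), the B cell attractant, was higher in CD45hi cells with a wide spread. It showed 13.6, 3.06, 33.5 and 16.2 cpm in CD CD45hi and 0.53, 0.36, 2.21 and 0.91 cpm in CD CD45lo libraries. In WD-fed mice it showed 30.005, 12.9 and 14.0 cpm in CD45hi and 0.85, 4.60, 0.22 and 1.06 cpm in CD45lo libraries. The groups did not overlap on either diet. Its log2 fold change was 3.49 ± 0.95 (FDR = 0.0498) in WD-fed mice, at the edge of the threshold, and Cxcl13 passed there in 9 of 25 alternatives. The call was lost without any single one of CD CD45hi replicates 1 and 4, CD CD45lo replicates 1, 2 and 4, WD CD45hi replicates 1, 2 and 3, and WD CD45lo replicates 1, 3 and 4 (FDR = 0.05135 to 0.1435). In CD-fed mice it was 4.04 ± 0.95 (FDR = 0.0229), and Cxcl13 passed in 21 of 25 alternatives. In CD-fed mice the call was lost without CD CD45hi replicate 3 (FDR = 0.0622) and without CD CD45lo replicate 1, 2 or 4 (FDR = 0.0813 to 0.0912). Summed over 4 B cell genes, the level was 7.60 to 27.0 cpm in CD45hi and 3.41 to 13.1 cpm in CD45lo libraries, of which 1 gene was called higher in WD-fed and 0 in CD-fed mice. The part of such cells in the Cxcl13 level was not tested.

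Cxcl12 and Cxcl14 did not pass the test on either diet. Cxcl12 (ENSMUSG00000061353, chr6:117168535-117181367, plus strand), a ligand made by stromal and blood vessel cells, varied widely within every group. It showed 16.1, 22.5, 0 and 0.13 cpm in CD CD45hi and 1.00, 9.55, 1.35 and 1.19 cpm in CD CD45lo libraries. In WD-fed mice it showed 0.66, 28.2 and 23.7 cpm in CD45hi and 0.26, 11.1, 4.01 and 1.52 cpm in CD45lo libraries. Its log2 fold change was 2.06 ± 1.55 (FDR = 0.599) in WD-fed and 1.56 ± 1.46 (FDR = 0.846) in CD-fed mice. Summed over 7 endothelial and mural genes, the level was 65.5 to 130 cpm in CD45hi and 41.7 to 80.3 cpm in CD45lo libraries. Of these, Cldn5, which defines brain endothelium, was at 0 in 5 libraries and at most 2.48 cpm. Of the 7, 1 was called higher in CD45hi cells on both diets, the receptor gene Flt1, at 16.2 to 68.4 cpm in CD45hi and 1.29 to 12.2 cpm in CD45lo libraries. Cdh5, the cadherin of endothelial junctions, was at 48.5 cpm in WD CD45hi replicate 2, the library with the highest Cxcl12 level. It was at most 4.93 cpm in the others. Among them were WD CD45hi replicate 3 and CD CD45hi replicate 2, next highest in Cxcl12, with Cdh5 at 0 and 1.99 cpm. The part of vessel cells in the Cxcl12 level was not tested.

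Cxcl14 (ENSMUSG00000021508, chr13:56288643-56296551, minus strand), a chemokine of epithelia and some neurons, was near the limit of detection. It showed 5.31, 0.33, 0.35 and 1.29 cpm in CD CD45hi libraries, above the CD CD45lo libraries at 0.12, 0.21, 0.25 and 0.28 cpm. In WD-fed mice it showed 1.13, 1.61 and 0 cpm in CD45hi and 0, 0.67, 0.16 and 0.38 cpm in CD45lo libraries, which overlapped. Its log2 fold change was 3.04 ± 1.46 (FDR = 0.388) in CD-fed and 1.58 ± 1.47 (FDR = 0.714) in WD-fed mice.

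Levels of different genes were compared per length, in the deposited TPM (transcript abundance scaled to length and depth). In CD CD45hi cells Cxcl2 led with 236 ± 58.9 TPM (SD, n = 4), followed by Cxcl16 with 121 ± 39.0 TPM and Cxcl10 with 70.0 ± 10.3 TPM. These neighbours did not overlap between libraries, whereas Cxcl13 (22.4 ± 17.4 TPM) and Cxcl9 (21.4 ± 9.01 TPM) did. In WD CD45hi cells the order Cxcl2 (140 ± 50.5 TPM, n = 3), Cxcl16 (114 ± 33.3 TPM) and Cxcl10 (71.7 ± 63.0 TPM) was the same, but all neighbours overlapped. In CD45lo cells Cxcl16 led on both diets, with 38.9 ± 2.99 TPM on the CD and 48.8 ± 14.2 TPM on the WD (n = 4 each). Cxcl10 came next with 23.0 ± 6.85 and 21.2 ± 9.85 TPM, below Cxcl16 without overlap. Every remaining member averaged under 5 TPM in CD45lo cells.

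The make-up of CXC chemokine RNA per length is described by each gene's share of the summed TPM. Cxcl2 made up 48.7% ± 8.88 (SD) of the sum over the 9 genes in CD CD45hi and 36.0% ± 1.94 in WD CD45hi cells, but 4.84% ± 2.96 and 1.76% ± 1.56 in the matching CD45lo cells. Cxcl16 made up 56.3% ± 4.23 and 64.1% ± 9.83 in CD45lo cells of CD-fed and WD-fed mice and 25.2% ± 7.75 and 30.1% ± 7.04 in CD45hi cells. The summed level was 481 ± 37.8 TPM in CD CD45hi and 385 ± 120 TPM in WD CD45hi cells, against 69.5 ± 8.65 and 77.8 ± 24.4 TPM in CD45lo cells.

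**Figure D4:**
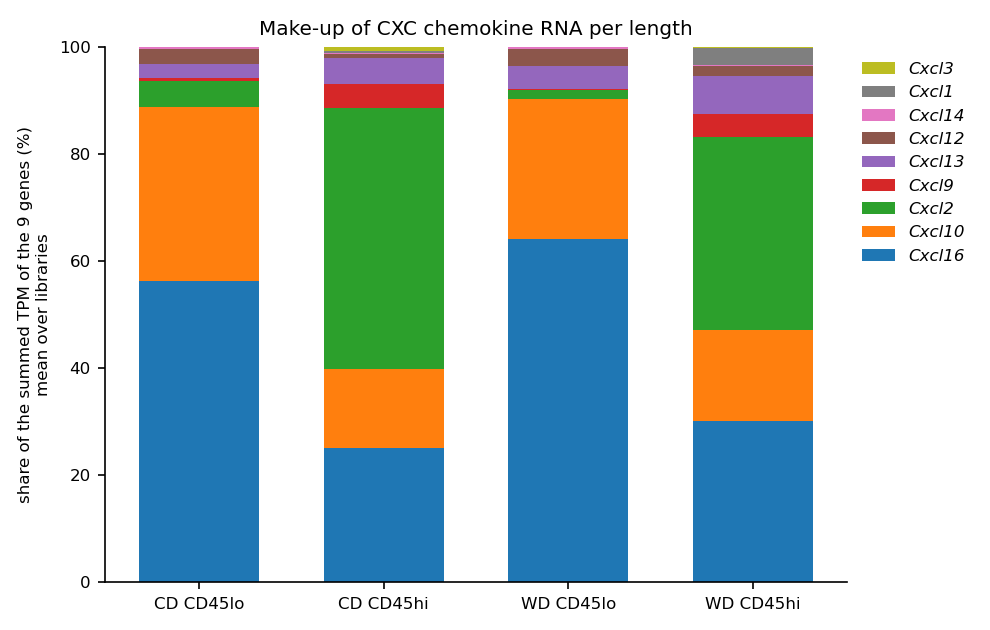
Mean share of each CXC chemokine in the summed TPM of the 9 genes, by group, in percent. Cxcl16 and Cxcl10 fill most of the CD45lo bars, and Cxcl2 is the largest part of both CD45hi bars.

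The diets were compared within each cell population to ask whether the WD changed these chemokines. No member passed in CD45hi cells, where 0.254% of all genes were called, with FDRs of 0.444 to 0.985 over the 9 members. Cxcl2 averaged 94.97 ± 31.8 cpm (SD, n = 3) in WD CD45hi and 153 ± 37.9 cpm (n = 4) in CD CD45hi libraries, a log2 fold change of -0.69 ± 0.51 (SE, FDR = 0.520), and the groups overlapped. Cxcl16 averaged 157 ± 34.5 cpm on the WD and 155 ± 36.4 cpm on the CD, a log2 fold change of 0.02 ± 0.26 (FDR = 0.985). Cxcl9 differed by -0.37 ± 0.68 (FDR = 0.831) and Cxcl10 by 0.06 ± 0.62 (FDR = 0.977). The widest difference was that of Cxcl1 at 3.03 ± 1.93 (FDR = 0.444), which rested on WD CD45hi replicate 2 and was -1.003 without it.

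In CD45lo cells 0% of all genes were called between the diets by edgeR, against 123 genes at an unadjusted p under 0.05 and 4 genes called by DESeq2. Every member tested had an FDR of 1. Cxcl2 averaged 0.70 cpm on the WD and 1.54 cpm on the CD, with a log2 fold change of -1.17 ± 0.57, and its unadjusted p was 0.0575. Cxcl1 and Cxcl3 were at or under 3 counts in both diets, and no fold is given. Whether the difference between CD45hi and CD45lo cells itself depended on the diet was tested by the interaction, which called 0.00668% of all genes. No member passed, with FDRs of 0.872 to 0.975 over the 7 members measured in both populations. For Cxcl2 the log2 fold change between cell populations was 0.48 ± 0.75 larger in WD-fed mice, for Cxcl9 0.72 ± 1.01 larger and for Cxcl16 -0.11 ± 0.36. In all alternatives of the diet and interaction tests 0 members passed, with a lowest FDR of 0.104.

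The genes most like each member across the 15 libraries were ranked among 13196 genes by the root mean square difference of log2 cpm, each gene centred on its own mean. For Cxcl2 they were Cxcl9 (0.71), Il1b (0.90) and Trem1 (0.97), and for Cxcl9 they were Cxcl2 (0.71), Il1b (0.75) and Mgl2 (0.78). For Cxcl16 they were Nfkbiz, Ccl12 and Lsp1 (0.30 to 0.32), and for Cxcl10 Fam65b, Osm and Vmp1 (0.69 to 0.71). For Cxcl13 they were Pianp, Sh3bgrl and Slc2a6 (0.90 to 0.95), and for Cxcl14 3110082I17Rik, Tmem154 and RP23-103I12.3 (0.80 to 0.86). The nearest genes of the remaining members were those of Cxcl1 (Gimap4, Mns1 and Capn5, 0.92 to 1.06), Cxcl3 (BC100530, Mefv and Lcn2, 1.01 to 1.09) and Cxcl12 (Kl, Pkn3 and Cdadc1, 1.34 to 1.43). The distance grows with the spread of a gene's own values, so it does not rank the members against each other.

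Other genes of the pathway were read from the same fit. Of 6 other CXC ligands, Pf4, the platelet factor 4 also made by macrophages, was called higher in CD45hi cells, with a log2 fold change of 4.32 ± 0.61 (FDR = 0.000328) in WD-fed and 4.15 ± 0.58 (FDR = 0.000331) in CD-fed mice. Cxcl11, the third ligand of Cxcr3, was measured in 1 CD CD45hi library (5.41 cpm) and 1 WD CD45hi library (2.45 cpm) and was at or under 1 count in the rest. Cxcl5, Ppbp, Cxcl15 and Cxcl17 did not pass the filter. Of 8 receptors, Cxcr2 and Cxcr4 were called higher in CD45hi cells on both diets. Cxcr2, which binds Cxcl1, Cxcl2 and Cxcl3, was at 221 to 530 cpm in CD45hi and 13.6 to 23.2 cpm in CD45lo libraries, and Cxcr4, which binds Cxcl12, at 62.9 to 176 and 1.70 to 5.79 cpm. Cxcr3, Cxcr5, Cxcr6 and Ackr3 were tested and not called, Cxcr1 was listed at 0 in every library, and Ackr1 did not pass the filter.

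Of 11 genes of the NF-kB arm, which drives inflammatory chemokines, 7 were called higher in CD45hi cells in WD-fed and 6 in CD-fed mice, and 0 lower. The list's median log2 fold change was 1.48 and 1.15. Il1b led with 5.91 ± 0.41 (FDR = 2.10e-07) in WD-fed and 5.86 ± 0.40 (FDR = 1.26e-07) in CD-fed mice. Tnf, Nfkbia, Tnfaip3, Nfkbiz and Zfp36 were called on both diets with log2 fold changes of 1.15 to 2.22, and Tlr2 was called in WD-fed mice alone (1.48 ± 0.23, FDR = 0.00518, against 0.87 ± 0.21, FDR = 0.269), a difference between diets that the interaction did not call (FDR = 0.537). Among the genes not called, Nfkb1 had the highest level in WD-fed mice, at 171 cpm in CD45hi and 110 cpm in CD45lo libraries. Tlr2 was the highest of those not called in CD-fed mice, at 187 and 103 cpm.

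Of 6 genes of the interferon-gamma arm, which drives Cxcl9 and Cxcl10, 0 were called on either diet. The list's median was 0.02 in WD-fed and 0.12 in CD-fed mice. Ifngr1, the receptor chain with the highest level, was at 351 cpm in CD45hi and 462 cpm in CD45lo libraries of WD-fed mice (FDR = 0.942). Of 5 genes that process or bind chemokines, Dpp4 and Mmp9, which cleave them, were called higher in CD45hi cells on both diets, and the heparan sulfate carrier Sdc4 in WD-fed mice. Dpp4 differed by 6.30 ± 1.34 (FDR = 0.00907) and 4.93 ± 1.23 (FDR = 0.0316) in WD-fed and CD-fed mice, and Mmp9 by 4.43 ± 0.88 (FDR = 0.00607) and 5.13 ± 0.88 (FDR = 0.00181). Adam17, which sheds membrane proteins, was the highest of those not called, at 337 cpm in CD45hi and 395 cpm in CD45lo libraries of WD-fed mice. Of 7 genes of receptor signalling 0 were called, the highest being Rgs2 at 1103 cpm in CD45hi and 1095 cpm in CD45lo libraries of WD-fed mice. No gene of these 6 lists was called between the diets or by the interaction.

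**Figure D5:**
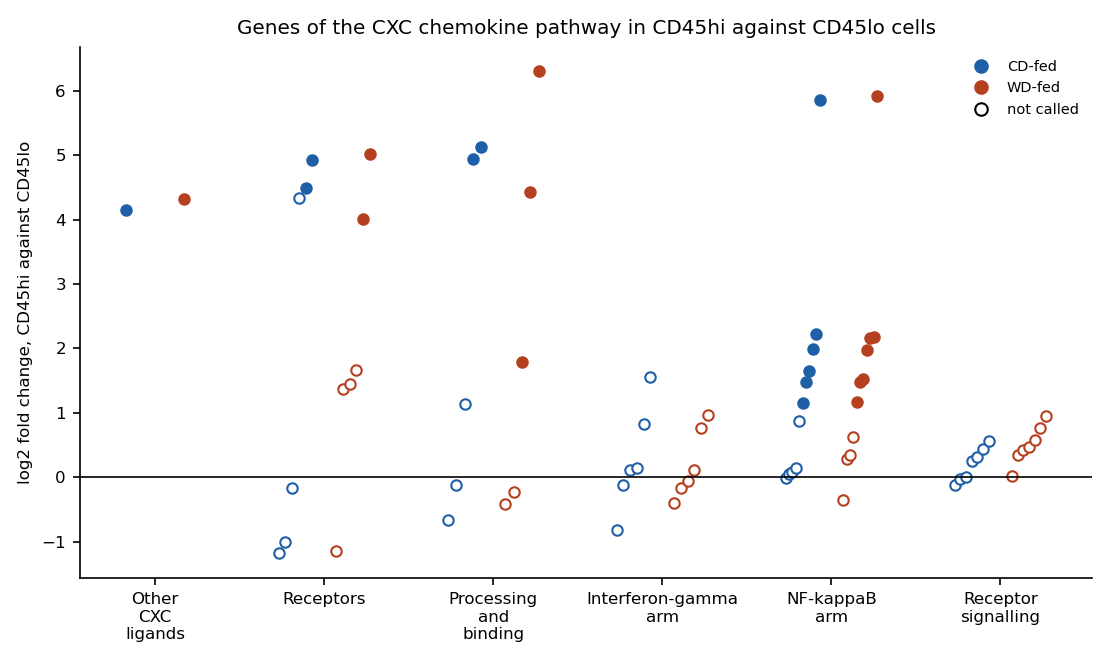
Log2 fold change in CD45hi against CD45lo cells of each tested gene of 6 pathway lists, for CD-fed (blue) and WD-fed (red) mice, with filled circles for genes called. Genes at or under 3 counts in CD45lo cells are left out. Called genes lie among the other ligands, the receptors, the processing genes and the NF-kB arm, and none among the interferon-gamma and signalling genes.

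Several cell type lists also differed between CD45hi and CD45lo cells. All 5 border macrophage genes were called higher in CD45hi cells on both diets. Of 6 monocyte genes 2 were called higher in WD-fed and 3 in CD-fed mice, and the summed level was 376 to 1039 cpm in CD45hi and 58.0 to 168 cpm in CD45lo libraries. Of 8 neutrophil genes 4 were called higher on each diet, with a summed level of 1142 to 2936 against 579 to 935 cpm, while Ly6g was at 0 in 5 libraries. Most of the CD45lo sum was Csf3r, at 465 to 744 cpm in CD45lo and 593 to 885 cpm in CD45hi libraries. The 4 called, S100a8, S100a9, Retnlg and Stfa2l1, had log2 fold changes of 3.05 to 9.58, and Ly6g, Csf3r, Camp and Ltf were not called. The dendritic cell genes summed to 121 to 296 cpm in CD45hi and 18.8 to 35.7 cpm in CD45lo libraries, with 1 of 5 called. The T and NK cell genes summed to 9.85 to 138 cpm against 0 to 0.23 cpm, and Cd3e and Trbc2 were at 0 in 14 and 15 libraries. Of this list 3 genes passed the filter, and 3 were called higher in CD45hi cells of WD-fed and 2 in those of CD-fed mice. In CD45hi libraries Nkg7 reached 18.9, Klrb1c 56.3 and Gzma 64.0 cpm. The 10 immediate early and dissociation genes summed to 4495 to 5998 cpm in CD45hi and 1787 to 4983 cpm in CD45lo libraries. By the 1.5-fold test 0 of them were called on either diet. Fos and Ier2 were still higher in every CD45hi than in any CD45lo library on both diets, with Fos at 441 to 568 against 114 to 340 cpm in CD-fed mice. So were Junb in CD-fed and Dusp1, Atf3 and Hspa1a in WD-fed mice, against 8.26% and 10% of all genes. Fosb, Jun, Egr1 and Hspa1b overlapped on both diets. Of 7 microglia genes 4 were called lower in CD45hi cells of WD-fed mice and 7 in CD-fed mice. The part of each of these in the chemokine levels was not tested.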

How the data were processed

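RNA from sorted brain myeloid cells was selected for poly(A), made into TruSeq RNA v2 libraries and sequenced. The authors trimmed the reads and quantified them with RSEM 1.2.12 on mm10. For each gene they deposited RSEM's expected count, which can be fractional and carries no normalization, and the TPM, which is scaled to length and depth. The annotation release is not given in the sources used here, nor is the sequencing platform of each library. Gene positions come from GENCODE M21, which held 37607 of the 38924 gene IDs.

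Groups of libraries were read from the labels. After rounding of the expected counts, the filter left 14967 genes that reached 1 cpm in 2 or more of the 15 libraries, and TMM factors were computed on these. All 15 libraries entered a single edgeR 4.0.16 quasi-likelihood fit (R 4.3.3) with 4 groups. CD45hi and CD45lo cells were compared with glmTreat at 1.5-fold, and diets and the interaction with glmQLFTest. FDRs were taken over all kept genes by Benjamini-Hochberg. The SE is the log2 fold change divided by the square root of F. A fold against libraries that were all at or under 3 counts is a lower bound against 3 counts per library, which covers counting error only. No replicates of a group were repeats of one another.

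The members and the gene lists were chosen with earlier results of these data known. The genes named were the members, the listed other ligands and receptors, of each further list the genes called and the most abundant one not called, and the 3 genes most like each member. The alternatives were DESeq2 1.42.0, the edgeR 4 form of the fit, a fold limit applied afterwards, DESeq2 size factors, 2 other filters, only the 2 groups compared, 2 replicate blocks, and leaving out each library. A fit without the 2 CD45hi libraries apart on the second principal component was added after the data were seen.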

Additional observations from a re-analysis of the deposited data

Results flagged for a closer look

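A gap rule (Dixon's, at the 95% level) was applied to each chemokine in each group of 4 libraries, and 4 of 24 such groups held a library apart from the rest, where chance gives about 5%. All 4 were CD45lo groups. Cxcl2 was at 1.97 cpm in WD CD45lo replicate 4 and at 0.22 to 0.39 cpm in the others. Cxcl9 was at 1.08 cpm in CD CD45lo replicate 4 and at 0.21 to 0.31 cpm in the others. Cxcl12 was at 9.55 cpm in CD CD45lo replicate 2 and at 1.00 to 1.35 cpm in the others, or 184 counts against 17 to 22 counts. Cxcl1 was at 0.0567 cpm, or 1 count, in CD CD45lo replicate 4 and at 0 in the others, which meets the rule at any count above 0. The groups of 3 WD CD45hi libraries were not examined in this way.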

How the results depend on the processing

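The number of CXC chemokines called was 3 to 6 in WD-fed and 3 to 5 in CD-fed mice over 25 alternatives, and 0 in each diet and interaction comparison over 23. Between the cell populations Cxcl2, Cxcl9 and Cxcl16 were called in all 25 on each diet, Cxcl13 lost its call in some, and Cxcl10 and Cxcl1 gained one in some, each higher in CD45hi cells throughout. The calls of Cxcl9 and Cxcl1 are a description, since both genes passed the filter through CD45hi libraries. Cxcl1 was not tested where 1 cpm was required in 4 libraries, since it did not pass that filter. The counts over all genes moved more. Between the diets in CD45hi cells, 38 genes were called, against 1030 with DESeq2 (423 higher, 607 lower on the WD), 252 with the edgeR 4 form (161 higher, 91 lower), 69 with 1 cpm required in 4 libraries, 0 with only the 2 groups compared, and 283 without the 2 libraries apart. In CD45lo cells DESeq2 called 4. The interaction called 1 gene, against 188 with DESeq2, 0 with the edgeR 4 form and 3 without the 2 libraries apart. With the 1.5-fold limit applied afterwards, 1335 and 1162 genes were called between the cell populations in WD-fed and CD-fed mice, against 775 and 595. Leaving out each library gave 513 to 917 calls in WD-fed and 411 to 701 in CD-fed mice between the cell populations, 1 to 287 between the diets in CD45hi cells, with the fewest without WD CD45lo replicate 2, and 0 to 6 for the interaction. Of the 9 ranks by TPM, 5 to 7 kept their place in CD CD45hi, 3 to 9 in CD CD45lo, 6 to 9 in WD CD45hi and 6 to 9 in WD CD45lo cells. The causes of these moves were not tested.

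Whether the replicate numbers pair the libraries by animal is not known. Each gene's group mean was subtracted from its log2 cpm, and the remaining deviations were correlated over genes. In these deviations no CD45hi library correlated above 0.0695 with the CD45lo library of its number. This cannot decide the pairing, because libraries of different numbers were not compared. The numbers in the sample titles and in the deposited files pair the WD libraries differently. With a replicate block by titles within each diet, 398 genes were called between the cell populations in WD-fed mice and 0 by the interaction. With a block by file numbers within each diet, 353 and 0 were called. Between the diets, the block by titles joined libraries of the same number on both diets, which come from different mice. That block therefore stands for no animal, and with it 2 genes were called in CD45hi cells. Cxcl13 was not called between the cell populations in WD-fed mice under the block by titles (edgeR FDR = 0.08795) or by file numbers (FDR = 0.05546). Under the block by titles within each diet, the log2 fold change turned to -0.40 for Cxcl12 between the cell populations in CD-fed mice. In the interaction it turned to 0.30 for Cxcl13 and 0.11 for Cxcl16. Under the block joined across the diets it turned to -0.16 for Cxcl10 between the diets in CD45hi cells. Under the block by file numbers it turned to -0.40 for Cxcl12, and to -0.57 for Cxcl10 and 0.026 for Cxcl13 in the interaction.

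None of the values that changed sign had passed a test. Without the 2 libraries apart, Cxcl13 turned to -0.31 between the diets in CD45hi cells and Cxcl16 to 0.17 in the interaction. Leaving out each library, the log2 difference between the diets in CD45hi cells ran from -1.003 to 4.96 for Cxcl1, -0.99 to 0.57 for Cxcl10, -0.30 to 0.79 for Cxcl13, -1.69 to 0.46 for Cxcl14 and -0.13 to 0.19 for Cxcl16. In CD45lo cells it ran from -0.45 to 0.12 for Cxcl10, -0.76 to 1.82 for Cxcl12, -0.50 to 1.47 for Cxcl13, -0.24 to 0.89 for Cxcl14 and -0.058 to 0.28 for Cxcl16. For the interaction it ran from -0.13 to 1.60 for Cxcl9, -0.84 to 0.72 for Cxcl10, -0.96 to 1.62 for Cxcl12, -1.28 to 0.69 for Cxcl13 and -0.26 to 0.075 for Cxcl16. Cxcl1, Cxcl3 and Cxcl14 were at or under 3 counts in libraries of both cell populations, which limits what their values can show. Low counts also limit the CD45lo level of Cxcl9, which was at or under 3 counts in 2 WD CD45lo libraries.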
